A study of Gallus gallus with 6 samples.

Results

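Lymphocyte genes were followed across 6 Affymetrix chicken arrays to see where T-cell and B-cell signal lay among tissues pooled in mixes of unnamed content. One array each carried RNA of adipose tissue and of liver, and 4 arrays carried mixed tissues (mix 1 to mix 4). Every bird was an Arbor Acres broiler, male and 49 days old, and had been fed corn and soybean. The labels name neither the tissues in a mix nor the number of birds behind an array. A list of 38 genes was looked up by symbol in the platform's gene annotation, and 33 of them were found among 13009 genes: 13 of 15 T-cell genes, 9 of 11 B-cell genes and 11 of 12 genes that both lineages use. CD8B, IL2RB, BLNK, TNFRSF13C and CORO1A had no probe set under those symbols and are not analysed here. Each gene is given by the probe set with the highest mean over the 6 arrays, in MAS5 signal units on the linear scale.

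T cells read antigen through a receptor that signals through the CD3 chains and CD247 to the kinases LCK and ZAP70, while B cells use an antibody receptor that signals through CD79B to SYK and BTK. In birds T cells mature in the thymus and B cells in the bursa of Fabricius, and both settle in spleen, gut and other tissues. In tissue RNA, fewer lymphocytes and less RNA per lymphocyte cannot be told apart.

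Over 38439 probe sets adipose had a median signal of 48.0, liver 27.0 and the mixes 44.8 to 58.1. On the log2(signal + 13) scale used for all differences below, the median difference of the 25958 probe sets tested was 0.08 for adipose and -0.75 for liver against the 4 mixes, and 0.02, -0.19, -0.15 and 0.19 for mix 1, 2, 3 and 4 against the other 3 mixes. The arrays carried the tissue markers their labels call for: the lipid droplet protein PLIN1 gave 11033 on adipose and at most 643 elsewhere, and albumin (ALB) 15031 on liver and at most 4698 elsewhere. The mixes are different pools, not repeats of 1 tissue, so the spread among them is a spread between tissues. A limma p-value below sets a lone array against that spread and assumes that the array would vary as the mixes do. Of the 33 members 28 passed the filter for testing, a signal over 44.1 on at least 1 array. LCK, CXCR5, RHOH, RAG1 and RAG2 stayed under it on every array.

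Most T-cell members were brightest on mix 1, then on mix 2, mix 3 and mix 4. This held for 12 of the 13 T-cell members, while 3.68% of all genes ran in that order. The exception was LCK, whose probe set stayed between 1.9 and 3.8 on all arrays and so gives no order. Of 14 other T-cell genes found, listed apart from the members and given further below, 3 ran in that order. Members of a list are not replicates, the order itself was counted after the values had been seen, and no member passed limma in any comparison.

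The receptor chains were among the members in this order. CD3D gave 1259 on adipose and 941 on liver, against 3118, 2423, 1776 and 922 on mix 1, 2, 3 and 4. CD3E, a second chain of the same complex, gave 865 on adipose and 919 on liver, against 2699.9, 1528, 965 and 324 on the mixes. CD247, the zeta chain that carries most of the signalling motifs, gave 404 and 314, against 1022, 638, 408 and 176. Mix 4 was thus the lowest array for all 3 chains, and both single tissues lay between mix 4 and mix 3. On the log2 scale mix 1 exceeded the mean of the other mixes by 0.97 for CD3D (SE 0.62), 1.77 for CD3E (SE 0.92) and 1.47 for CD247 (SE 0.79), with a limma adjusted p of 0.998 for each. For mix 4 the differences were -1.35 (SE 0.43, limma adjusted p = 0.451), -2.25 (SE 0.65, adjusted p = 0.403) and -1.80 (SE 0.61, adjusted p = 0.494). ZAP70, the kinase that docks on the phosphorylated chains, followed with 93.5 on adipose and 68.9 on liver, against 197, 138, 89.3 and 57.3 on the mixes.

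Coreceptors and costimulatory molecules lay in the same order at other spans. CD8A, the coreceptor of cytotoxic T cells, gave 147 on adipose and 126 on liver, against 387, 255, 135 and 65.9 on mix 1 to mix 4, a 5.87-fold span among the mixes. CD4, the coreceptor of helper T cells, gave 141 on adipose and 106 on liver, against 241, 233, 185 and 97.0, a span of 2.48-fold. A second CD8A probe set kept the order with a narrower span, at 80.3 on adipose and 58.1 on liver, against 133, 112, 106 and 54.2, so the wider span of CD8A rests on its brighter probe set. The difference of mix 1 from the other mixes was 1.45 for the brighter CD8A probe set (SE 0.77) and 0.54 for CD4 (SE 0.60). Among the accessory molecules, CD5, a brake on receptor signalling, gave 42.9 on adipose and 46.9 on liver, against 167, 123, 106 and 53.3 on the mixes. It was below all 4 mixes on both single tissues. CD40LG, through which helper T cells activate B cells, gave 122 on adipose and 68.1 on liver, against 179.5, 137.5, 95.1 and 37.8 on the mixes. The costimulatory receptor CD28 was the one T-cell member brightest on liver, at 117, against 94.6, 68.7, 42.2 and 39.8 on the mixes, with adipose at 69.4. CTLA4, the inhibitory counterpart of CD28, was faint throughout, between 8.6 on liver and 66.2 on mix 1, the one array where it passed the filter.

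IL7R, the receptor subunit for the survival cytokine interleukin 7, gave 102 on adipose and 96.9 on liver, against 388, 318, 166 and 58.8 on mix 1 to mix 4. That is a difference of 1.31 for mix 1 (SE 0.92) and -2.0 for mix 4 (SE 0.60, limma adjusted p = 0.419).

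GZMA, granzyme A, a protease of cytotoxic granules, stood apart from the other members in size. It gave 516 on adipose and 387 on liver, against 6342, 537, 288 and 92.6 on mix 1, 2, 3 and 4. The signal on mix 1 was 11.8-fold that on mix 2 and 68.5-fold that on mix 4, and GZMA was the only member at least 4-fold above each of the other 5 arrays, a margin that 1.40% of all genes had on mix 1. Its log2 difference for mix 1 was 4.61 (SE 0.99), with a limma adjusted p of 0.482. GNLY, listed under the symbol of the cytotoxic granule protein granulysin, was brightest on mix 1 too, with 2815 on adipose and 3132 on liver, against 7127, 3703, 1561 and 715 on the mixes. XCL1, a chemokine of cytotoxic lymphocytes, had its peak on mix 2 instead, at 171 on adipose and 310.3 on liver, against 373, 458, 205 and 68.4. CD244 gave 173 on adipose and 151 on liver, against 377, 231, 349 and 140. IFNG was brightest on mix 2, at 33.1, and under the filter. Of the 5 genes of this cytotoxic list found, 3 were brightest of the mixes on mix 1 (background 28.8%) and 2 on mix 2 (12.0%). Mix 1 was also the array of the intestinal epithelium: all 15 intestine genes found were brightest of the mixes there (background 28.8%). Their median difference was 6.28, and their part in the T-cell values was not tested.

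**Figure D1:**
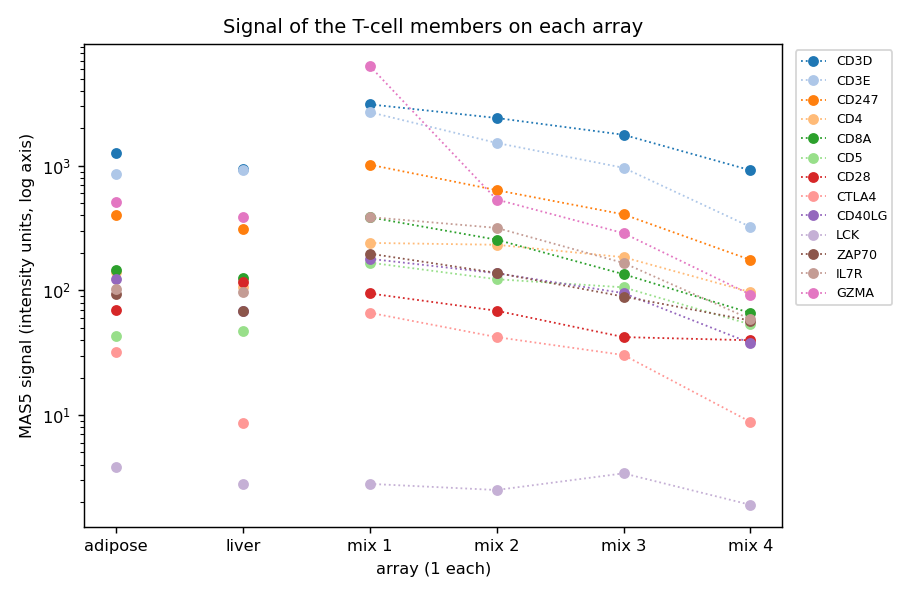
MAS5 signal (log axis) of the 13 T-cell members on each of the 6 arrays, 1 point per gene and array; dotted lines only join the points of 1 gene over the mixes. Of the members 12 descend over mix 1, 2, 3 and 4, GZMA has its widest gap between mix 1 (6342) and mix 2 (537), and LCK lies between 1.9 and 3.8 throughout.

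B-cell genes had no common order, although 8 of the 9 members were faintest of the mixes on mix 4 (background 13.8%). CXCR5, which is under the filter, is in that count. CD79B, the signalling chain of the B-cell receptor and the member closest to a defining marker of B cells, was brightest on mix 2, with 33.9 on adipose and 53.5 on liver, against 109, 163, 81.5 and 55.4 on mix 1 to mix 4. TNFRSF13B, a receptor for the B-cell survival factors of the tumour necrosis factor family, was the other one brightest on mix 2: 3.1 on adipose and 3.5 on liver, against 28.0, 46.2, 12.1 and 5.1. Both genes were below all 4 mixes on adipose and on liver, and the log2 difference for mix 2 was 0.92 (SE 0.52) and 1.16 (SE 0.87), with a limma adjusted p of 1.0 for each. TNFRSF13B passed the filter on mix 2 alone and sits close to the added 13 elsewhere. Its other probe set, under the filter on every array, ran the other way. That probe set gave 22.2 on adipose and 22.7 on liver, against 6.2, 6.4, 16.5 and 7.6 on mix 1 to mix 4. With the mean of all probe sets the difference of TNFRSF13B from the mixes was -0.16 on adipose and -0.13 on liver.

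The kinases of the B-cell receptor pathway, which myeloid cells also use, differed among themselves. BTK gave 195 on adipose and 219 on liver, against 199.9, 275, 575 and 153 on mix 1 to mix 4. SYK gave 249 on adipose and 110.5 on liver, against 128, 167, 441 and 186. Both were brightest on mix 3, by 1.44 (SE 0.47, limma adjusted p = 0.819) and 1.41 (SE 0.41, adjusted p = 0.812) over the mean of the other mixes. LYN, the kinase upstream of both, was brightest on mix 1 and second on liver: 1359 on adipose and 2048 on liver, against 2268, 938, 1666 and 626. A second probe set for LYN was brightest of the mixes on mix 3, at 97.9, so its place depends on the probe set.

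The remaining B-cell members spread less or lay outside the mixes on a single tissue. BCL6, the repressor that drives germinal centre cells and is made in many other tissues, gave 654 on adipose, above all mixes, and 272 on liver, below all mixes, against 545, 407, 536 and 391. A second BCL6 probe set past the filter put adipose inside the mixes and liver below them. IRF8, a factor of B cells and of the macrophage lineage, was brightest on liver at 624, against 566, 346, 332 and 191 on the mixes, and gave 326 on adipose. CD40, the receptor for CD40LG, spanned only 1.39-fold over the mixes, with 106.5 on adipose and 62.6 on liver, against 132, 117, 95.5 and 94.8. CXCR5, the receptor that guides B cells into follicles, gave 6.4 at most and so no reading.

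Among genes shared by both lineages, a group of 7 of 11 was brightest on mix 3, while 19.9% of all genes were. PTPRC, the pan-leukocyte phosphatase CD45, gave 877 on adipose and 580.4 on liver, against 1224, 988, 1363 and 417 on mix 1 to mix 4. IL2RG, the common cytokine receptor chain, gave 624 on adipose and 807 on liver, against 738, 645, 956 and 298. LCP2, the adaptor downstream of ZAP70, gave 234 on adipose and 207 on liver, against 298, 218, 405 and 112. In these 3 genes mix 3 led mix 1 by at most 1.36-fold, and mix 4 was the lowest array.

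A sharper peak on mix 3 belonged to IKZF1, CXCR4 and CCR7, and the last of the 7 was RAG2, which lay under the filter. IKZF1, Ikaros, a factor of lymphoid and other blood progenitors, gave 93.3 on adipose and 105 on liver, against 134, 91.1, 362 and 92.6 on mix 1 to mix 4. CXCR4, the receptor for CXCL12, gave 247 on adipose and 62.2 on liver, against 231, 260.1, 688 and 275. CCR7, which guides lymphocytes to lymphoid tissue, gave 24.9 on adipose and 13.2 on liver, against 30.0, 37.9, 92.0 and 33.7. Mix 3 was 2.69-fold, 2.50-fold and 2.43-fold above the next mix in these 3 genes, and the other mixes lay close together. The log2 differences for mix 3 were 1.67 (SE 0.42), 1.39 (SE 0.37) and 1.17 (SE 0.48), with limma adjusted p of 0.812, 0.812 and 0.827. CCR7 passed the filter on mix 3 alone, so its difference there follows in part from the filter, and it was 0.38 with the mean of all probe sets. CXCL12, the ligand of CXCR4, was also brightest on mix 3, at 1336 on adipose and 469 on liver, against 591, 1583, 3601 and 607.5. The chemokine CCL19, a ligand of CCR7, was not: it gave 439 on adipose and 305 on liver, against 959.5, 810.5, 243 and 274.

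A pair of shared members followed the T-cell order instead. IKZF3, Aiolos, a relative of Ikaros in mature lymphocytes, gave 119 on adipose and 111 on liver, against 253, 170.2, 140.0 and 53.7 on mix 1 to mix 4. IRF4, a factor of activated lymphocytes and plasma cells, gave 81.8 on adipose and 29.8 on liver, against 268, 228.5, 178 and 45.3. For IRF4 the difference of mix 4 from the other mixes was -2.01 (SE 0.43), and its limma adjusted p of 0.273 was the smallest of any member in a comparison between mixes.

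RAG1 and RAG2, which cut the antigen receptor genes in immature lymphocytes, gave no signal above the filter. RAG1 lay between 9.0 and 19.5 over the 6 arrays, and RAG2 gave 11.0 on adipose and 6.8 on liver, against 18.4, 31.4, 35.3 and 30.2 on the mixes. DNTT, the enzyme that adds bases at the joins during that cutting, lay between 2.5 and 27.2, and FOXN1, the factor of the thymic epithelium, between 2.8 and 20.6, and both were picked out after their values were seen. The other 4 thymus genes found passed the filter, with no common brightest mix. CD1B, which presents lipids, reached 89.9 and AIRE, the factor that shows tissue antigens to young T cells, 60.1, both on liver. CD1C reached 52.1 on mix 2 and the homing receptor CCR9 50.5 on mix 3. A gene under the filter is not shown to be absent, since the sources used here give no detection calls. RHOH, a GTPase of blood cells, lay between 1.0 and 19.9.

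**Figure D2:**
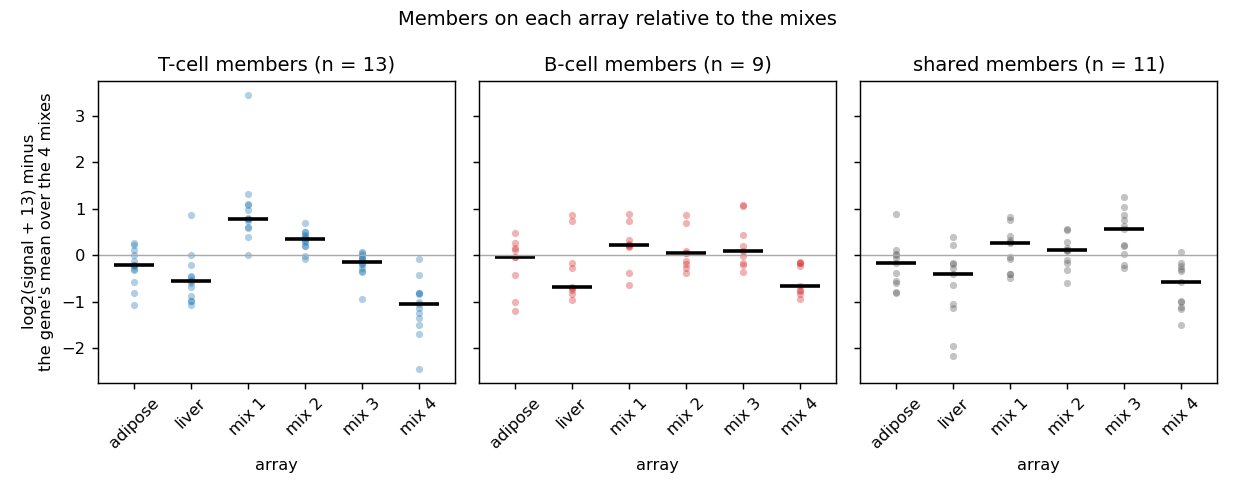
Each point is 1 member on 1 array, as log2(signal + 13) minus that gene's mean over the 4 mixes, and bars are list medians. T-cell members descend over mix 1 to mix 4, B-cell members scatter, and shared members lie highest on mix 3; mix 4 is the lowest of the mixes in all 3 panels.

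**Figure D3:**
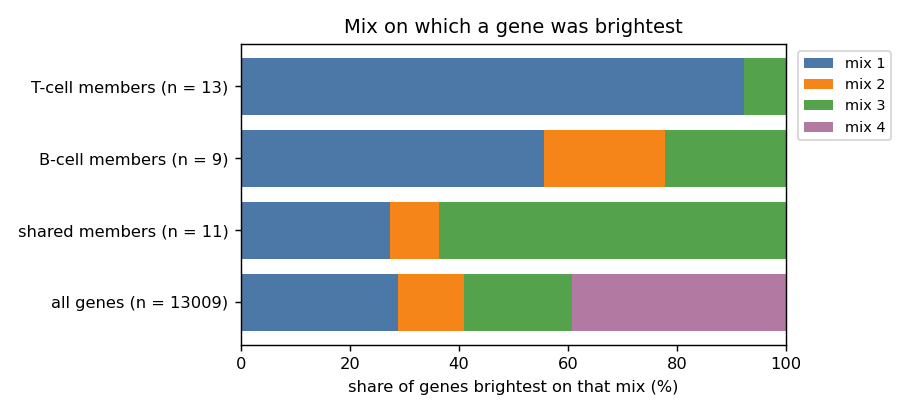
Share of genes (%) brightest of the 4 mixes on each mix, for 13 T-cell, 9 B-cell and 11 shared members and for all 13009 genes. No member was brightest on mix 4, where 39.3% of all genes were.

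Set against the whole array, 20 of 33 members were brightest of the mixes on mix 1 (background 28.8%), 3 on mix 2 (12.0%), 10 on mix 3 (19.9%) and 0 on mix 4 (39.3%). By lineage mix 1 held 12 of 13 T-cell members, 5 of 9 B-cell members and 3 of 11 shared members. Mix 4 was the faintest mix for 27 of 33 members, against a background of 13.8%, although its median signal was the highest of the 6 arrays. By lineage these were 13 of 13 T-cell, 8 of 9 B-cell and 6 of 11 shared members. The counts include members under the filter, whose order gives no reading. LCK, CXCR5 and RHOH are among those faintest on mix 4. CXCR5 and RAG1 are among those brightest on mix 1, RHOH on mix 2, and LCK and RAG2 on mix 3. The T-cell members had a median difference of 1.04 for mix 1, 0.47 for mix 2, -0.20 for mix 3 and -1.40 for mix 4 against the other 3 mixes. That of mix 3 turned to 0.01 with quantile and 0.03 with trimmed-mean scaling. The B-cell medians were 0.30, 0.06, 0.12 and -0.89, and the shared medians 0.36, 0.14, 0.76 and -0.76, while those of all genes were 0.02, -0.14, -0.20 and 0.21. Without mix 4 the T-cell median of mix 2 was 0.04 and that of mix 3 was -0.76, and the shared median was -0.09 for mix 1 and -0.37 for mix 2.

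By limma no probe set of 25958 (0.0%) passed an adjusted p of 0.05 in adipose against the mixes or in any mix against the other 3. Without adjustment 1904 probe sets fell under 0.05 for adipose and 1439, 602, 1566 and 2333 for mix 1 to mix 4. Of the 28 members tested, 0 did so for adipose and 1, 0, 4 and 11 for the mixes. In liver against the mixes 13 probe sets (0.0501%) passed after adjustment, and none was a member.

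**Figure D4:**
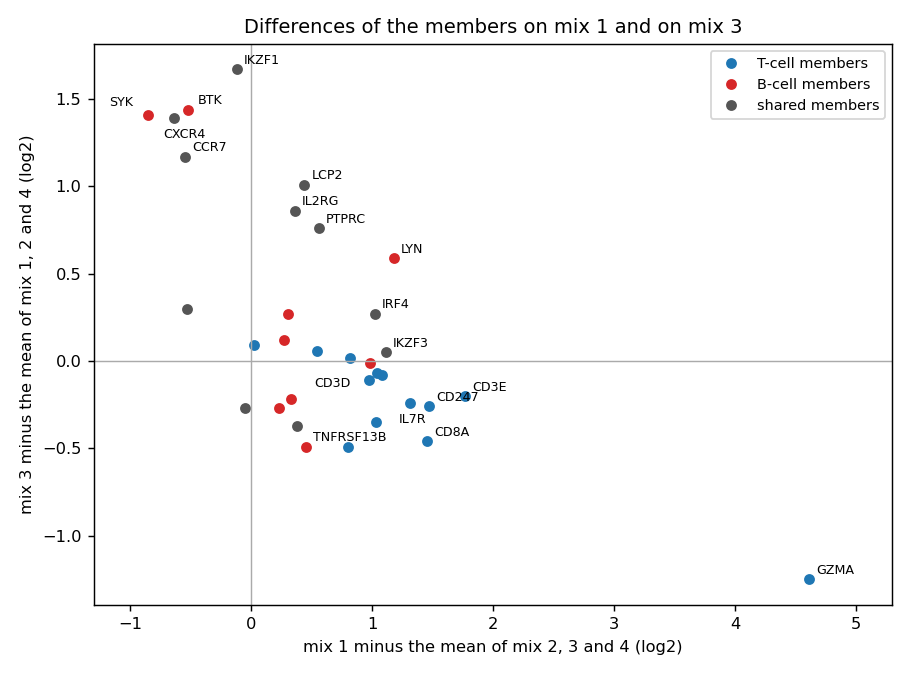
Log2 difference of each of the 33 members on mix 1 from the mean of the other 3 mixes (horizontal) against its difference on mix 3 from the mean of the other 3 (vertical); both axes share arrays, so their relation is no result. T-cell members apart from LCK lie to the right, with GZMA furthest at 4.61, and IKZF1, BTK, SYK, CXCR4, CCR7 and LCP2 lie at the top, above 1.

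Adipose lay inside the range of the mixes for most members. It was above all 4 mixes for 3 of 33 members (background 24.3%), BCL6, LCK and RHOH, of which the last 2 are under the filter. By the second BCL6 probe set, also past the filter, adipose at 163 lay inside the mixes, where mix 1 gave 198. Adipose was below all 4 for 5 (background 17.5%), CD5, CD79B, TNFRSF13B, CCR7 and RAG2. By their other probe sets, all under the filter, it lay above all 4 mixes for TNFRSF13B and inside them for CCR7 and RAG2. Adipose exceeded mix 4 for 12 of 13 T-cell members and mix 1 for 1 of them. LCK, which is under the filter, is in both counts. The share of all genes in these positions was not counted, so the counts have no background. The median difference from the mixes was -0.21 for T-cell, -0.03 for B-cell and -0.18 for shared members, and without mix 1 these were 0.12, 0.06 and 0.08. Without mix 4 they were -0.66, -0.16 and -0.47. CD79B had the largest deficit, at -1.21 (SE 0.59, limma adjusted p = 0.781), the smallest adjusted p of a member on adipose.

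On liver the member values have to be read beside its generally fainter array. Liver was below all 4 mixes for 11 of 33 members, against 57.6% of all genes, and above all 4 for 2, CD28 and IRF8, against 8.31%. The 11 below were CD5, CTLA4, CD79B, SYK, CD40, TNFRSF13B, BCL6, CXCR4, CCR7, IRF4 and RAG2, the last under the filter. By their other probe sets, all under the filter, liver lay above all 4 mixes for TNFRSF13B and CCR7 and inside them for RAG2. The T-cell median of -0.56 lay 0.19 above the shift of the array, which was -0.75 over the probe sets tested. The B-cell median of -0.69 lay 0.06 above that shift and the shared median of -0.41 lay 0.34 above it. Over all 38439 probe sets, without the filter, the median difference was -0.51. The T-cell and B-cell medians lay below that value. Over all 13009 genes, each by its brightest probe set and without the filter, the median difference was -0.68. The T-cell median lay above this value and the B-cell median just below it. The side of the shift on which these medians lay thus depends on the probe sets compared. With quantile scaling the T-cell and B-cell medians were 0.14 and 0.11, and with trimmed-mean scaling that of the T-cell members was 0.02. Leaving out a mix gave T-cell medians from -0.96 without mix 4 to -0.21 without mix 1, and shared medians from -0.66 without mix 4 to -0.26 without mix 3.

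Single members on liver ran both ways. CXCR4 was the furthest below the mixes, at -2.18 (SE 0.67, limma adjusted p = 0.211), or -1.43 relative to the shift of the array, followed by IRF4 at -1.95 (SE 0.91, adjusted p = 0.283). LYN at 0.74 (SE 0.73), IRF8 at 0.87 (SE 0.61), CD28 at 0.87 (SE 0.53) and IL2RG at 0.40 (SE 0.66) were the members tested with a positive difference. That of LYN was -0.14 with the mean of all probe sets, and its second probe set past the filter gave 29.7 on liver, below the 30.2 to 97.9 of the mixes. Of 17 macrophage and granulocyte genes 10 were above all 4 mixes on liver (background 8.31%), with a median difference of 1.38. LYN and IRF8 are also made by macrophages, and the part of such cells in their values was not tested.

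Other T-cell genes, listed apart from the members, did not share one order. Of them 3 of 14 descended from mix 1 to mix 4, while 3.68% of all genes did. Of 27 such genes 14 were found. Of these 6 were brightest of the mixes on mix 1 (background 28.8%), 1 on mix 2 (12.0%), 3 on mix 3 (19.9%) and 4 on mix 4 (39.3%). TRAF3IP3 (103 on adipose and 101 on liver, against 185, 157, 207 and 83.1 on mix 1 to mix 4) and the factor EOMES (78.4 and 63.0, against 122, 82.4, 67.1 and 52.6) differed in their brightest mix. PRKCQ, a kinase of T-cell activation that muscle also makes, was brightest on mix 4 at 191, and GATA3, a factor of helper T cells and of several epithelia, on mix 2 at 192. These 4 were named for their mean level, in which ICOS, a costimulatory receptor, tied with EOMES. ICOS gave 88.2 on adipose and 26.0 on liver, against 174, 66.4, 72.3 and 38.7 on mix 1 to mix 4, and was brightest on mix 1.

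Genes of antibody production were bright in 3 of the mixes. IGLL1, the platform's name for an immunoglobulin light chain-like gene, gave 5846 on adipose and 1193 on liver, against 10973, 11318, 10049.5 and 3665 on mix 1 to mix 4. JCHAIN, which joins secreted IgA and IgM, gave 1468 on adipose and 169 on liver, against 5728, 5038, 5315 and 896. Mix 1, 2 and 3 lay close together in both genes, and liver and mix 4 were lowest. CD74 and BLB1, of antigen presentation, were bright everywhere: CD74 lay between 10146 on mix 4 and 16862 on mix 1, and BLB1 between 7479 and 13127 on the same arrays. Of the 19 other B-cell genes found, 9 were brightest of the mixes on mix 1 (background 28.8%), 6 on mix 2 (12.0%), 3 on mix 3 (19.9%) and 1 on mix 4 (39.3%). PAX5, a B-cell marker outside the members and added after its values were seen, did not share the peak of CD79B on mix 2. It gave 33.8 on adipose and 67.0 on liver, against 70.9, 53.7, 35.9 and 54.8 on mix 1 to mix 4. CR2 and POU2AF1, also picked after their values were seen, were among the 6 genes brightest on mix 2. On mix 1 to mix 4 CR2 gave 95.9, 378, 79.6 and 70.8, and POU2AF1 109, 114.1, 91.8 and 29.0.

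Mix 3, where 7 shared members and BTK and SYK peaked, was also the brightest of the mixes for many genes of other blood cells. All 5 thrombocyte genes found were brightest of the mixes there, where 19.9% of all genes were, with a median difference of 2.25. GFI1B gave 24.3 on adipose and 15.6 on liver, against 14.0, 18.6, 544 and 82.4 on mix 1 to mix 4, and ITGB3 249.8 and 273, against 197, 369, 1716 and 585. Of 6 red-cell genes 4 were brightest of the mixes on mix 3 (median difference 3.43). So were 9 of 17 macrophage and granulocyte genes (1.08) and 24 of 25 cell cycle genes (1.03). Over all 6 arrays 10 of the 17 macrophage and granulocyte genes were brightest on liver and 5 on mix 3. Of all 13009 genes 903 and 1724 were. MYB, a factor of blood progenitors picked out after its values were seen, gave 2.2 on adipose and 1.3 on liver, against 5.9, 2.3, 154 and 2.3. The part of these cells in the member values on mix 3 was not tested. Genes of spleen and lymphoid stroma had no common place, with 2 of 6 brightest on each of mix 1, 2 and 3 (background 28.8%, 12.0% and 19.9%). TLX1, a factor needed for the spleen to form in mouse, was one of those on mix 2, at 37.1 on adipose and 31.5 on liver, against 55.3, 136, 22.6 and 59.1.

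**Figure D5:**
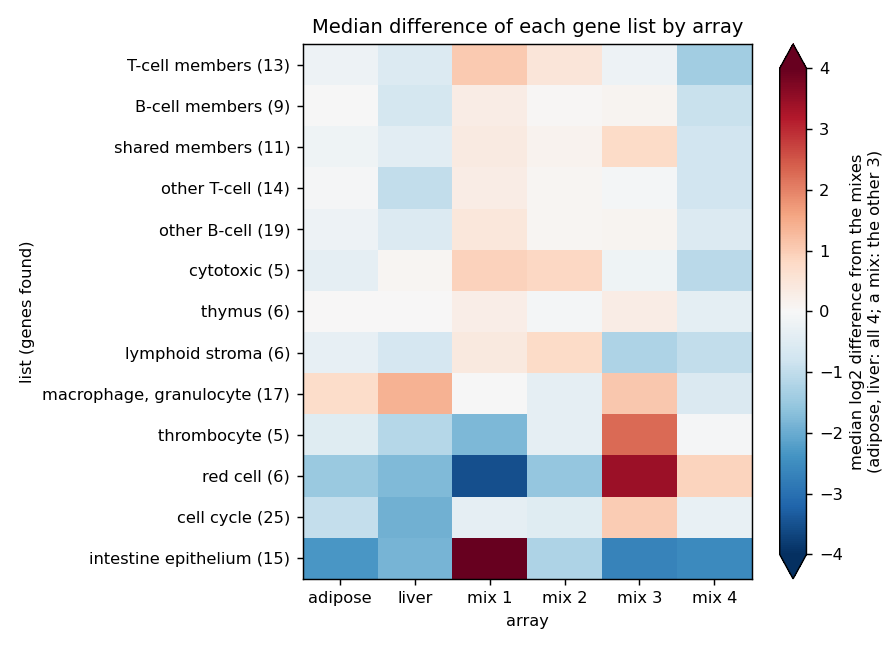
Median log2 difference of each gene list on each array from the mixes (all 4 for adipose and liver, the other 3 for a mix), colour from -4 to 4, with the number of genes found in brackets. The 13 T-cell members are highest on mix 1 (1.04) and lowest on mix 4 (-1.40), while intestine genes peak on mix 1 and thrombocyte, red-cell and cell cycle genes on mix 3.

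Of the 33 members 13 had more than 1 probe set, 17 further ones in all, and 9 of these passed the filter. In 7 of the 9 the brightest mix was the one given above. For IL7R the second probe set gave 67.6 on adipose and 53.4 on liver, against 216, 110.6, 87.4 and 27.2 on mix 1 to mix 4, and for IKZF1 92.5 and 75.3, against 129.7, 113, 348 and 63.3. These repeat the brightest mix of the brighter probe set. For IKZF1 the faintest mix differed, being mix 2 by the brighter probe set and mix 4 by the second. Another IL7R probe set was an exception, beside LYN, with 70.7 on mix 1 and 72.7 on mix 2. Outside the symbol rule, and picked after their values were seen, the probe set listed as SH2D6, for which RefSeq gives BLNK as another name, ran at 264 on adipose and 292 on liver, against 616, 334, 398 and 145, and that of CD8BP, for which it gives CD8B, at 100.2 and 74.2, against 121, 214, 111 and 59.1.

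Likeness to the profile of the T-cell receptor genes (the mean log2 level of CD3D, CD3E, CD247, LCK and ZAP70) was ranked among genes other than the members. The likest were LOC419545, ARFGAP3, CASP6, GMIP, FAM53B, LOC100859837, CD7 and B3GNT7, with Pearson's r of 0.953 to 0.987 over 6 arrays. Of 4841 genes with a range of at least log2 2, members left out, 9 reached 0.95. CD7, a surface protein of T cells, gave 93.5 on adipose and 80.1 on liver, against 214.5, 126, 128 and 32.3 on mix 1 to mix 4. LOC419545, the first of them, gave 818 and 631, against 1889, 1562, 967 and 455. Likeness to the B-cell profile (CD79B, BTK and TNFRSF13B) was lower: 0 genes reached 0.95, and the closest were VILL (0.947), SEMA3B (0.946) and CYP24A1 (0.937), which breaks down vitamin D. MAP3K15, PLA2G4EL2, SLC26A4, PAQR5 and ZAR1L followed at 0.845 to 0.922. The genes of the B-cell profile did not share a brightest mix, and TNFRSF13B passed the filter on mix 2 alone. The lower likeness to that profile is therefore no measure of B cells. LCK, part of the T-cell profile, gives no order. All these correlations run over the same 6 arrays and describe those arrays only.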

How the data were processed

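Total RNA from adipose tissue, liver and 4 tissue mixes was hybridised to Affymetrix chicken arrays. The authors computed intensity with MAS5, per the submitters' processing notes, and deposited linear signal values. Its version, scaling target and detection calls were not given in those notes. Groups came from the sample titles. Of 38535 probe sets 96 controls were left out. Probe sets with 1 symbol (27168, against 177 with several and 11094 with none) were named from the platform annotation; 26853 matched the RefSeq gene table by gene number. Values became log2(signal + 13), 13 being the pooled 25th percentile, without further scaling. limma 3.58.1 in R 4.3.3 (eBayes with trend, Benjamini-Hochberg over 25958 probe sets, two-sided) was fitted with 1 mean per group, and again for each mix against the other 3; it was tested on simulated data. The members and lists were chosen with earlier results of these data known. All members found are named, with up to 4 of the brightest genes of other lists and the 8 likest non-members per profile. PLIN1 and ALB check the labels, and genes picked after their values were seen are so marked. The number of arrays limits precision. Alternatives covered the pseudocount, a floor, the filter, 3 scalings, the mean of all probe sets and leaving out each mix.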

Additional observations from a re-analysis of the deposited data

Results flagged for a closer look

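In 4 members 1 of the 4 mixes lay far from the other 3, by Dixon's 95% critical value for the gap to the nearest as a share of their range. These gaps were taken on the linear signal, not on the log2 scale used for the differences. GZMA gave 6342.2 on mix 1, a gap of 0.929 of the range. CXCR4 gave 687.7, CCR7 92.0 and IKZF1 361.7 on mix 3, with gaps of 0.902, 0.873 and 0.84. The critical value sets apart about 1 in 20 groups of normally distributed repeats. Linear signals of different pools are not such repeats, so this is no chance rate for the 36 groups looked at. Since the mixes are different pools of tissue, a lone high mix is a value of that pool.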

How the results depend on the processing

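The order of the T-cell members over mix 1 to mix 4 was counted at 12 of 13 as given, and at 10 to 13 over the alternatives, the lowest with spike-in scaling and with the floor. Members faintest on mix 4 numbered 21 to 31, and T-cell members brightest on mix 1 numbered 11 to 13. Brightest on mix 2 were 5 members with spike-in and 7 with trimmed-mean scaling, and 1 T-cell member with each scaling; the floor left 0 T-cell members brightest on mix 3. Leaving out a mix gave 0 to 12 T-cell members and 3 to 20 members brightest on mix 2, the highest without mix 1, and 0 to 2 members brightest on mix 4. The B-cell median of mix 4 was -0.33 with the floor, and that of liver 0.11 with quantile scaling. With a floor at 44.1 limma called 671 probe sets for adipose, 204 for liver, 988 for mix 1, 134 for mix 2, 447 for mix 3 and 1859 for mix 4, where equal floored values have no spread; CTLA4 on mix 1 (0.59, adjusted p = 0.00715) and CCR7 on mix 3 (1.06, adjusted p = 0.0225) were the members among them, and each passed the filter on that array alone. With the median as pseudocount it called 84 on liver, 29 on mix 1 and 60 on mix 4. On liver it called 20 with the mean of all probe sets, 27 without the filter, 43 with quantile and 78 with trimmed-mean scaling, and 0 without any 1 mix; the cause was not tested. No paired analysis was possible because adipose and liver have 1 array each and a mix number has no counterpart there.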
